A study of Mus musculus with 4 samples.

Results

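The 2-oxoglutarate-dependent oxygenases examined here are 39 mouse genes: the JmjC histone demethylases of the Kdm, Phf and Jmjd series, Jarid2, the HIF hydroxylases, the AlkB homologues with Fto, the collagen hydroxylases, and the lipid and carnitine hydroxylases Phyh, Bbox1 and Tmlhe. They were chosen by family membership, with the Tet genes left out, from 21887 protein-coding genes of the gene table. Their sites are the listed cytosines inside the gene or up to 2 kb beyond either end, 46 of 53206 positions for 5-methylcytosine (5mC) and 75 of 71864 for 5-hydroxymethylcytosine (5hmC).

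These enzymes use oxygen, ferrous iron and 2-oxoglutarate, and release succinate and carbon dioxide. Isocitrate dehydrogenases make 2-oxoglutarate, and the study's title concerns the deacetylation of one of them, IDH1, by HDAC6. The family removes methyl groups from histone lysines, DNA and RNA, and hydroxylates hypoxia-inducible factor (HIF), collagen and small molecules.

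Cells came from mouse bone marrow sorted as lineage-negative, Sca-1-high and c-Kit-positive (LSK), a fraction that holds blood stem cells and early progenitors. One genotype was wild type (WT) and the other an HDAC6 knockout (HDAC6 KO), each sequenced once after plain bisulfite treatment (WGBS), which reads both marks alike, and once after oxidation and bisulfite treatment (oxWGBS), which reads 5mC only. The labels tag the WGBS libraries 5mc and the oxWGBS libraries 5hmc, which differs from what each treatment reads. They number the WGBS libraries 1 and the oxWGBS libraries 2, and do not say whether the same animals gave both. They also do not give strain, sex, age, the kind of Hdac6 allele, or whether animals were pooled. The tables hold cytosine levels and no expression, so the LSK label could not be checked by marker genes. All levels, p-values and q-values below are the authors' own. Read depth is not stated, so no interval can be given for a level, and each difference is that of 1 library per method against 1, with no replicate check. Pairs of levels are given with wild type first and the knockout second.

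None of the 32 members in the promoter table carried a listed site in a promoter window, taken as the 250 bases before and 50 bases after an annotated start. Their 41 windows held a median of 21 CpGs (range 0 to 65), against 7 over all 32817 windows. Over all windows, 1.21% held a listed 5mC site and 2.23% a listed 5hmC site, so an empty set of 41 is no result about these genes. The 4 listed sites within 1000 bp of a start in that table lay at P4ha1, which encodes a catalytic subunit of collagen prolyl 4-hydroxylase, and at Alkbh5, Alkbh1 and Alkbh2, which act on RNA or DNA. Their windows are shown because they are the member promoters with a listed cytosine closest by. Each is read 5′ to 3′ from RefSeq on GRCm38, with CpGs in capitals.
P4ha1, chr10:59323046-59323345, plus strand: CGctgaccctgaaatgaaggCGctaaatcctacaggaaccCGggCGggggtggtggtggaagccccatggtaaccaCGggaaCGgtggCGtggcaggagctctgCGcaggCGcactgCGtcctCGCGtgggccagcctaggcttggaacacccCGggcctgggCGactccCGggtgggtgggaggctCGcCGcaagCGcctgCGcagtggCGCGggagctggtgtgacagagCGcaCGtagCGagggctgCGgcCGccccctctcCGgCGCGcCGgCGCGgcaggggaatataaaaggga
Alkbh5, chr11:60537433-60537732, plus strand: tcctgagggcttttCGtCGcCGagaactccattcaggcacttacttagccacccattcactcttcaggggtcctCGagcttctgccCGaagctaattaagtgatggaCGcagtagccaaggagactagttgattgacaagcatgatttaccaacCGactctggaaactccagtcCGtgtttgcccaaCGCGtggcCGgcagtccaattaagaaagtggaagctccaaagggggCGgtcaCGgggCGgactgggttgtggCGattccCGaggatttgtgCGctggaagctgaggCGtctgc
Alkbh1, chr12:87443790-87444089, minus strand: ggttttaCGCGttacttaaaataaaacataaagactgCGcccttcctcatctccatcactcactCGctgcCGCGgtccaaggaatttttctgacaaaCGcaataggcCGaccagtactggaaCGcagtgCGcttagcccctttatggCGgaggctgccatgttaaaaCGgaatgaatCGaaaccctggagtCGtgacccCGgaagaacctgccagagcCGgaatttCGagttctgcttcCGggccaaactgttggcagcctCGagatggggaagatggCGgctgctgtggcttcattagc
Alkbh2, chr5:114128169-114128468, minus strand: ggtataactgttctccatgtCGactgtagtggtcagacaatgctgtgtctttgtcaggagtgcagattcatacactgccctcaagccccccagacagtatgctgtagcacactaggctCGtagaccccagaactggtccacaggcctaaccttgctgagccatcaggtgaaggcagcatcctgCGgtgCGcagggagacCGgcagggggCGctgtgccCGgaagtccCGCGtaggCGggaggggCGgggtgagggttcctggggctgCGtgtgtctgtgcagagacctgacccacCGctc

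The listed cytosines lay upstream of these windows. In P4ha1, chr10:59322371 is 925 bp before the start and had 5hmC levels of 0% and 55.6%. Alkbh5, an RNA N6-methyladenosine demethylase, had chr11:60536770, 913 bp before its start, at 0% and 26.9% 5hmC. Alkbh1, which acts on methylated DNA and tRNA, had chr12:87444580, 741 bp before its start and also close to Slirp and Nrp, at 0% and 42.3% 5hmC (p = 0.000312, q = 0.683 in the authors' deposited table). Alkbh2, a DNA alkylation repair enzyme, had chr5:114128735, 517 bp before the start shown and within 2 kb of Ung, at 47.4% and 100% 5mC. The gene as annotated extends beyond that start, so this Alkbh2 site counts as inside the gene. At all 4 the knockout level was the higher one, where 64.4% of all listed 5hmC sites and 40.3% of all listed 5mC sites were higher, and 4 sites say little beside those shares. Apart from Alkbh1, their q was 1 in the authors' deposited table.

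The core letters of the HIF-binding element, ACGTG or GCGTG on either strand, contain a CpG and were counted in the same windows. A palindromic CACGTG counts on both strands. They were present in 25 of 41 member windows (61.0%), against 43.8% of all windows of this length, where CpGs are fewer. P4ha1 held 3 matches, Alkbh5 and Alkbh2 1 each, and Alkbh1 none. A match is a description of the letters and not evidence of binding.

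Of the 39 members, 20 held a listed 5mC site and 22 a listed 5hmC site, shares of 51.3% and 56.4%. Among all protein-coding genes these shares were 47.1% and 53.7%, close to those of the family. In all, 15 members had sites for both marks, 5 for 5mC alone, 7 for 5hmC alone and 12 for neither. The same split was not counted over all protein-coding genes, so these numbers are a description and no result about the family. The 12 without a listed site were Kdm2a, Kdm3a, Kdm5c, Kdm6a, Phf8, Jmjd6, Egln2, Alkbh8, Plod2, Plod3, Phyh and Tmlhe. All 4 X-linked members, Kdm5c, Kdm6a, Phf8 and Tmlhe, are among them. The share of all X-linked genes with a listed site was not counted, so this is no result about X. The gene table puts Tmlhe at the very start of X, below 3080659, the lowest X position in either table. Tmlhe could therefore not be assessed, but it is still counted among the 39 in the shares above.

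5mC sites of the family were evenly divided, with 23 higher and 23 lower in the knockout. That is 50% higher (exact 95% binomial interval 34.9 to 65.1%, counting error over sites only), against 40.3% of all listed 5mC sites. For 5hmC, 44 sites were higher and 31 lower, or 58.7% higher (46.7 to 69.9%), against 64.4% of all listed sites. Both intervals contain the share of the whole table. The median difference was -2.79 percentage points for 5mC and 18.6 points for 5hmC, against -23.3 and 22.2 points over all listed sites. No listed difference is under 10 points, so the 5mC median falls between the directions and only restates the even split. Higher member 5mC sites had a median of 38.3 points and lower ones of -34.7 points. Over all listed 5mC sites these medians were 34.0 and -37.6 points. By gene, 5mC was higher only in 6 members, lower only in 8 and both in 6; for 5hmC these numbers were 10, 2 and 10. This split by gene was not counted over all genes, so it is no result about the family.

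**Figure D1:**
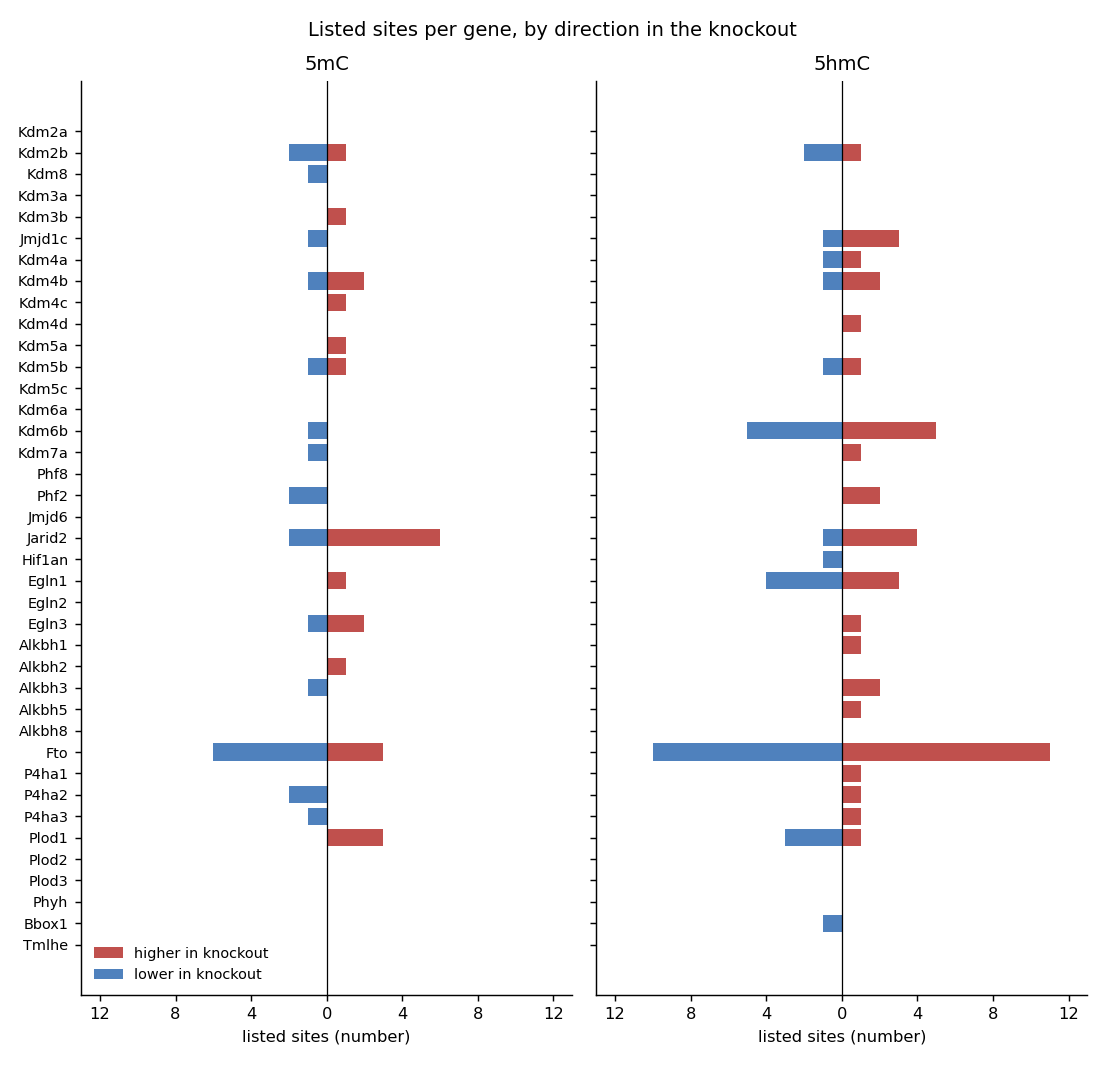
Number of listed sites in each of the 39 genes, with bars to the right for sites higher in the knockout and to the left for sites lower; the left panel shows 5mC and the right panel 5hmC. Fto has the most sites in both panels, with 9 5mC and 21 5hmC sites, and 12 genes have no bar at all.

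The q-values were mostly at their ceiling. In the authors' deposited table q was 1 at 43 of the 46 member 5mC sites and 56 of the 75 member 5hmC sites, against 98.9% and 86.6% of all listed sites. No member 5mC site had a q under 0.05 (0.175% of all listed sites did), and 2 member 5hmC sites did (1.08% of all). Those were 1 site in Egln1 and 1 in Jarid2. Every site named below has a q of 1 in the authors' deposited table unless another value is given.

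The wild-type level went with the direction, as it did over the whole table, but part of this is fixed by the listing. Since only differences of at least 10 points are listed, a wild-type level under 10 points from either end of the scale could only move away from it. Likewise, a site at 0% in the knockout could only be listed as lower. Whether the relation holds apart from these limits was not tested. Of 30 member 5mC sites at 50% or more in wild type, 22 were lower in the knockout (73.3%, against 72.4% of all such listed sites). Of 16 under 50%, 15 were higher (93.8%, against 87.7%). For 5hmC, 32 of the 44 higher sites started from exactly 0% in wild type (72.7%, against 81.3%), and 22 of the 31 lower sites ended at exactly 0% in the knockout (71.0%, against 84.2%). Differences ranged from 12.1 to 85.7 points for 5mC and from 10 to 80 points for 5hmC, and the tables hold no difference under 10 points.

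**Figure D2:**
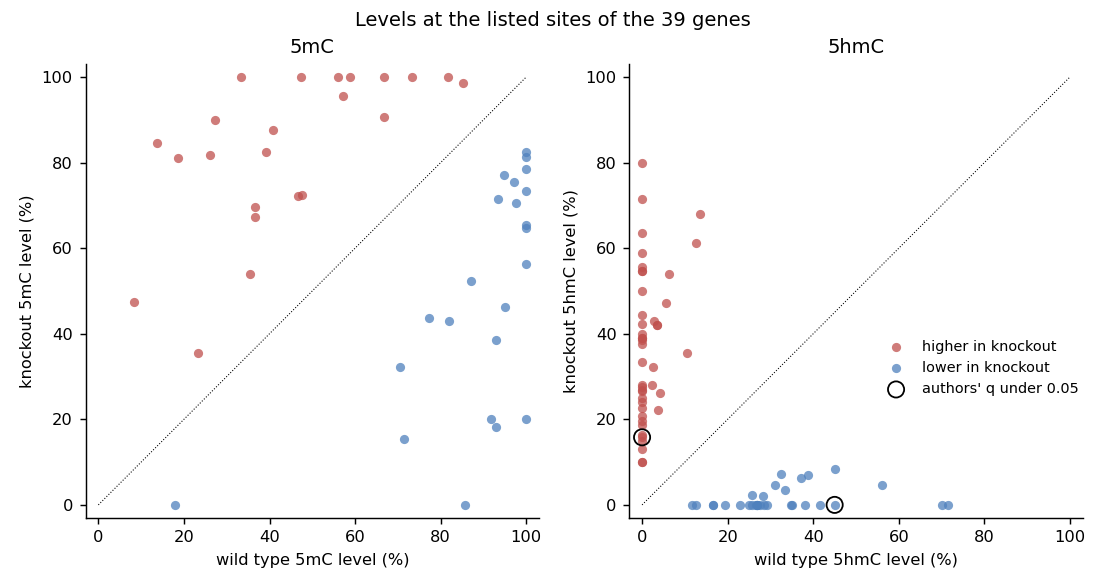
Knockout level against wild-type level, in percent, for the 46 5mC sites (left) and 75 5hmC sites (right) of the 39 genes; each point is 1 cytosine, the dotted line marks equal levels, and circles mark an authors' q under 0.05. The 5hmC points lie along both axes, since most started or ended at 0%, while the 5mC points are spread over the upper left and the right side.

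Of the 46 5mC sites 44 lay between the gene's ends, and of the 75 5hmC sites 63. The 12 outside 5hmC sites, 5 higher and 7 lower, were in Kdm6b (6), Kdm2b, Hif1an, Alkbh1, Alkbh3, Alkbh5 and P4ha1. The 2 outside 5mC sites were in P4ha3 and Plod1. A further gene, within the same 2 kb margin, shared 6 of the 5mC and 13 of the 5hmC sites.

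Length separated the members only loosely. Across the 39 genes, the number of sites correlated with gene length at a Spearman rho of 0.28 for 5mC and 0.16 for 5hmC, given as a description. Of the 15 members of 20 to 60 kb, 12 held a 5hmC site (60.5% of all genes of that length did) and 7 a 5mC site (54.4%). Of the 11 members of 60 to 150 kb, 5 held a 5hmC site and 7 a 5mC site, where 77.5% and 76.2% of all genes did. Of 8 members under 20 kb, 2 held a site for each mark (40.1% of all genes for 5hmC and 31.2% for 5mC). The 5 members of 150 kb or longer were Fto, Jarid2, Tmlhe, Kdm4c and Jmjd1c. Of these, 4 had listed 5mC and 3 had listed 5hmC, where 93.1% and 92.9% of all genes did. Tmlhe, which could not be assessed, is counted as without a site here, in the correlation above and in the density below. Per 100 kb, members held 1.65 5mC and 2.69 5hmC sites, against 2.40 and 3.67 over all protein-coding genes.

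Among the demethylases of histone H3 lysine 36, Kdm2b held sites for both marks. KDM2B binds unmethylated CpG islands through a CXXC zinc finger and brings Polycomb repressive complex 1 there. Its 5mC was 39.1% and 82.4% at chr5:122986268, 2239 bp downstream of a start, 100% and 81.2% at chr5:122932665, and 100% and 82.4% at chr5:122972330. Its 5hmC was 26.9% and 0% at chr5:122968588 (p = 0.000945 in the authors' deposited table), 34.8% and 0% at chr5:122990744 upstream of the gene, and 2.63% and 32.1% at chr5:122928756. Each mark thus had sites of both directions within Kdm2b. Its upstream 5hmC site is also within 2 kb of or inside A930024E05Rik. Kdm8, a JmjC oxygenase of histone and other substrates, had a 5mC site at 100% and 73.3% (chr7:125448209, p = 0.00132 in the authors' deposited table), and Kdm2a had none.

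The histone H3 lysine 9 demethylases held 6 5mC sites, of which 4 were higher, and 10 5hmC sites, of which 7 were higher. The exact 95% intervals of these shares, 22.3 to 95.7% and 34.8 to 93.3%, contain the 40.3% and 64.4% of the whole tables. Jmjd1c carried 4 of the 10. Its 5hmC was 0% and 50% at chr10:67252717 (p = 0.000283, q = 0.650 in the authors' deposited table) and 0% and 38.9% at chr10:67251789. In the same gene 5hmC was 0% and 22.7% at chr10:67105857 and 26.9% and 0% at chr10:67112180. Its single 5mC site, chr10:67100587, stood at 91.7% and 20%.

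Kdm4b, which removes methyl groups from lysines 9 and 36 and lies on chromosome 17, had 3 sites for each mark. Its 5mC was 66.7% and 90.7% at chr17:56399628, 81.7% and 100% at chr17:56374000, and 97.2% and 75.6% at chr17:56351465. Its 5hmC was 31.0% and 4.76% at the first of these positions, 0% and 38.5% at chr17:56327024, and 0% and 18.8% at chr17:56367067. Kdm4a had 5hmC sites of 35% and 0% (chr4:118139466) and of 0% and 15% (chr4:118152245). Kdm4d, a relative acting on lysine 9, had 5hmC of 0% and 26.7% at chr9:14463729 (p = 0.000435, q = 0.797 in the authors' deposited table). Kdm4c and Kdm3b each had 1 5mC site, at 58.8% and 100% (chr4:74285556) and at 27.3% and 90% (chr18:34804370). Kdm3a had no listed site.

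Demethylases of histone H3 lysine 4 were sparsely listed. Kdm5b, which removes methyl groups from active promoters, had 5mC of 40.9% and 87.5% at chr1:134562224, 2046 bp into the gene. That site is also within 2 kb of or inside Mgat4e. At chr1:134568752, Kdm5b 5mC was 100% and 56.2%. Its 5hmC was 27.6% and 0% at chr1:134565684 and 0% and 38.9% at chr1:134583319. Kdm5a had 5mC of 8.33% and 47.4% at chr6:120365515, 1416 bp from the lower-coordinate end of the gene and near Ccdc77. Kdm5c had no site.

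Kdm6b, a histone H3 lysine 27 demethylase, had 10 5hmC sites, 38.7 per 100 kb including the 2 kb margins. Of these, 6 lie in margins that other genes share; inside the gene it had 4, or 18.3 per 100 kb, close to the 17.2 of Egln1. The 10 were 5 higher and 5 lower, and 8 of them formed 2 runs. The first run spans 173 bp inside the gene, chr11:69401258-69401430, and all 4 of its sites were higher. There 5hmC was 0% and 37.5% at its first cytosine (p = 7.28e-06, q = 0.0539 in the authors' deposited table), 2.22% and 28.1% at the second, 10.4% and 35.5% at the third, and 3.64% and 22.2% at the fourth. The first position was also listed for 5mC, at 77.3% and 43.8%.

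The second Kdm6b run spans 142 bp outside the gene, chr11:69421713-69421854, from 1346 bp beyond the higher-coordinate end, and all 4 of its sites were lower. In order, 5hmC was 16.7% and 0%, 28.2% and 2.17%, 19.4% and 0%, and 26.9% and 0%; the smallest p in the authors' deposited table was 0.000911, at the second. This stretch also lies within the margins of Dnah2 and Gm51903, so its sites are not particular to Kdm6b. The remaining 5hmC sites, chr11:69397709 (16.7% and 0%) and chr11:69398426 (0% and 33.3%), lie below the other end, close to Tmem88 and Naa38. Over the whole table, 333 runs held at least 4 5hmC sites with gaps of up to 200 bp, and 225 of them had a single direction. The paralogue Kdm6a, on X, had no listed site.

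Among the PHD-finger demethylases, all 3 5mC sites were lower and all 3 5hmC sites higher. With so few sites the exact 95% intervals of the share higher, 0 to 70.8% for 5mC and 29.2 to 100% for 5hmC, contain the shares of the whole tables (40.3% and 64.4%). Phf2, a lysine 9 demethylase, had 5mC of 94.8% and 77.0% at chr13:48807650, where 5hmC was 0% and 16.2%. Its other sites were chr13:48856827, with 93.4% and 71.4% 5mC, and chr13:48863254, with 0% and 44.4% 5hmC. Kdm7a had 5mC of 100% and 78.6% at chr6:39201349 (p = 0.00132 in the authors' deposited table) and 5hmC of 0% and 71.4% at chr6:39142351. The 5hmC site of Kdm7a is also within 2 kb of or inside 4930599N23Rik. Phf8 had no site.

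Jarid2 held the largest block of neighbouring listed cytosines in the family. Its protein is a JmjC member without demethylase activity that guides Polycomb repressive complex 2. The block is 408 bp long, chr13:44869609-44870016, lies inside the gene 139 kb from its first start, and contains 6 5mC and 5 5hmC sites at 11 different positions. All 6 5mC sites were higher in the knockout, by 12.1 to 33.1 points. From the lowest position to the highest, wild-type 5mC was 35.4, 46.7, 36.6, 47.6, 36.6 and 23.3%, and knockout 5mC was 54.02, 72.2, 69.7, 72.5, 67.2 and 35.4%. The third, chr13:44869800, had the smallest p of all member 5mC sites (p = 1.21e-05, q = 0.270 in the authors' deposited table). In this stretch the lowest knockout level was under the highest wild-type level, since the last site sits lower in both genotypes.

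The first 4 5hmC sites of the Jarid2 block were at 0% in the wild-type cells, and at 15.79, 12.99, 10.13 and 10% in knockout cells. At chr13:44869609, the first, the authors' deposited table gives p = 6.62e-07 and q = 0.00705, and the q of the next 3 was 0.0504, 0.326 and 0.135 in the authors' deposited table. The fifth, chr13:44870016, had the opposite direction, with 11.8% and 0%, 2 bp from the last 5mC site; the authors' deposited table gives p = 7.51e-06 and q = 0.0551. These are small differences on the level scale with small p-values, and the depth behind them is not stated. Outside the block, Jarid2 had 2 lower 5mC sites, at 92.9% and 18.2% (chr13:44807381, p = 0.000239 in the authors' deposited table) and at 87.1% and 52.4% (chr13:44748114). Over the whole table, 131 runs held at least 4 5mC sites with gaps of up to 200 bp, 127 of them with 1 direction; Jarid2 was the only member with such a 5mC run. Jmjd6, a lysyl hydroxylase of splicing proteins, had no site.

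**Figure D3:**
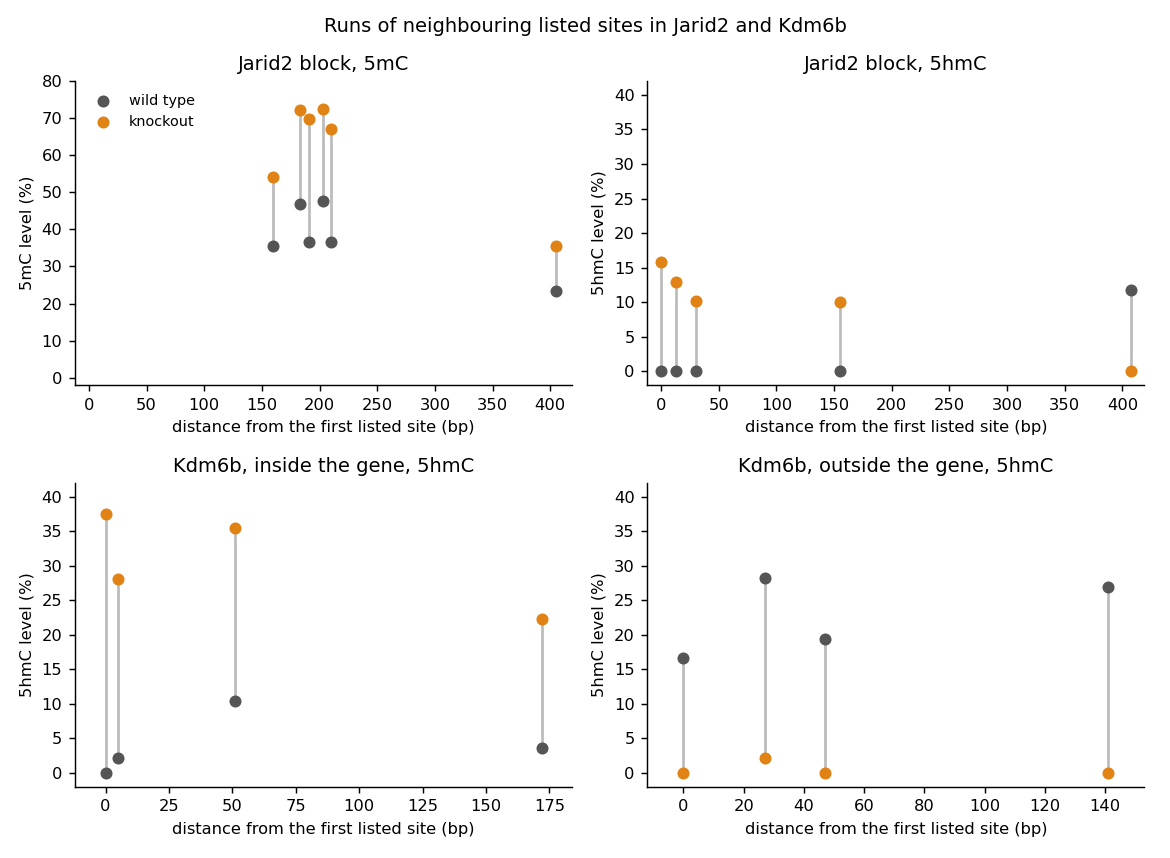
Wild-type and knockout levels in percent, joined by a line for each cytosine, against distance in bp from the first listed site, for the Jarid2 block (5mC left, 5hmC right, same origin) and for both Kdm6b 5hmC runs. All 6 Jarid2 5mC sites and the 4 Kdm6b sites inside the gene are higher in the knockout, while the 4 Kdm6b sites outside the gene and the last Jarid2 5hmC site are lower.

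The oxygen-sensing hydroxylases mark HIF-alpha subunits for destruction (Egln1, Egln2 and Egln3, prolyl hydroxylases) or block their coactivator contact (Hif1an, an asparaginyl hydroxylase). Egln1, the main HIF prolyl hydroxylase, held 7 5hmC sites, 3 higher and 4 lower. Its site chr8:124925685 was at 45% and 0%, with the smallest q of all member sites (p = 6.38e-07, q = 0.00683 in the authors' deposited table). The 4 lower sites lay nearest to the start, at 2447, 4596, 18825 and 23569 bp, and the 3 higher ones beyond them, at 26437, 29431 and 36437 bp; this order was picked out after the values were seen.

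In Egln1, the lower 5hmC sites had wild-type levels of 29.2% (chr8:124946807, q = 0.882 in the authors' deposited table), 38.1% (chr8:124944658), 25% (chr8:124930429) and 45%, and all stood at 0% in knockout cells. The higher sites were at 5.56% and 47.1% (chr8:124922817), 0% and 19.5% (chr8:124919823), and 4.17% and 26.1% (chr8:124912817). At chr8:124944658, within 2 kb of or inside Gm46060, 5mC was 57.1% and 95.5%. Egln3, whose transcript is a classical HIF target, had 5mC of 100% and 20% at chr12:54189259 with 5hmC of 0% and 80% at the same cytosine. Those 80 points are the largest 5hmC difference of the family (p = 0.000835 in the authors' deposited table). A pair of Egln3 cytosines within 7 bp, chr12:54184971 and chr12:54184977, was higher for 5mC, at 56% and 100% and at 66.7% and 100%. Hif1an had 1 5hmC site past its far end, at 33.3% and 3.45% (chr19:44577795), and Egln2 had none.

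Fto, an RNA demethylase of N6-methyladenosine, was the longest member (chr8:91313367-91668433, 355 kb) and held the most sites. Among the 568 protein-coding genes within 1.5 times its length in either direction, the median was 5 5mC and 6 5hmC sites, with upper quartiles of 9 and 11. Fto's 9 5mC sites equal that quartile and its 21 5hmC sites exceed it. Of the 9, 3 were higher and 6 lower; of the 21, 11 were higher and 10 lower. 5hmC sites of both directions occurred along the whole gene. For 5mC, the 4 sites nearest the start were all lower, and the 3 higher sites lay farther along, among the other lower ones; this order was picked out after the values were seen.

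The higher 5mC sites of Fto with the smallest p were chr8:91526699, at 18.5% and 80.95% (authors' deposited table, p = 2.56e-05, q = 0.492), and chr8:91568641, at 13.6% and 84.6% (p = 5.31e-05, q = 0.835, the authors' deposited table). Its lower 5mC site with the smallest p was chr8:91390466, at 100% and 65.4% (p = 0.000588 in the authors' deposited table). For 5hmC, chr8:91376374 stood at 71.4% and 0%, and for it the authors' deposited table gives p = 2.26e-05 and q = 0.131. The higher 5hmC site with the smallest p, chr8:91388036, stood at 0% and 58.8%, with p = 4.11e-05 and q = 0.202 in that deposited table of the authors. The largest 5mC difference of the family, 85.7% and 0% at chr8:91437821, is also in Fto, with p = 0.00466 in the authors' deposited table. None of the 30 Fto sites had a q under 0.05 there.

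**Figure D4:**
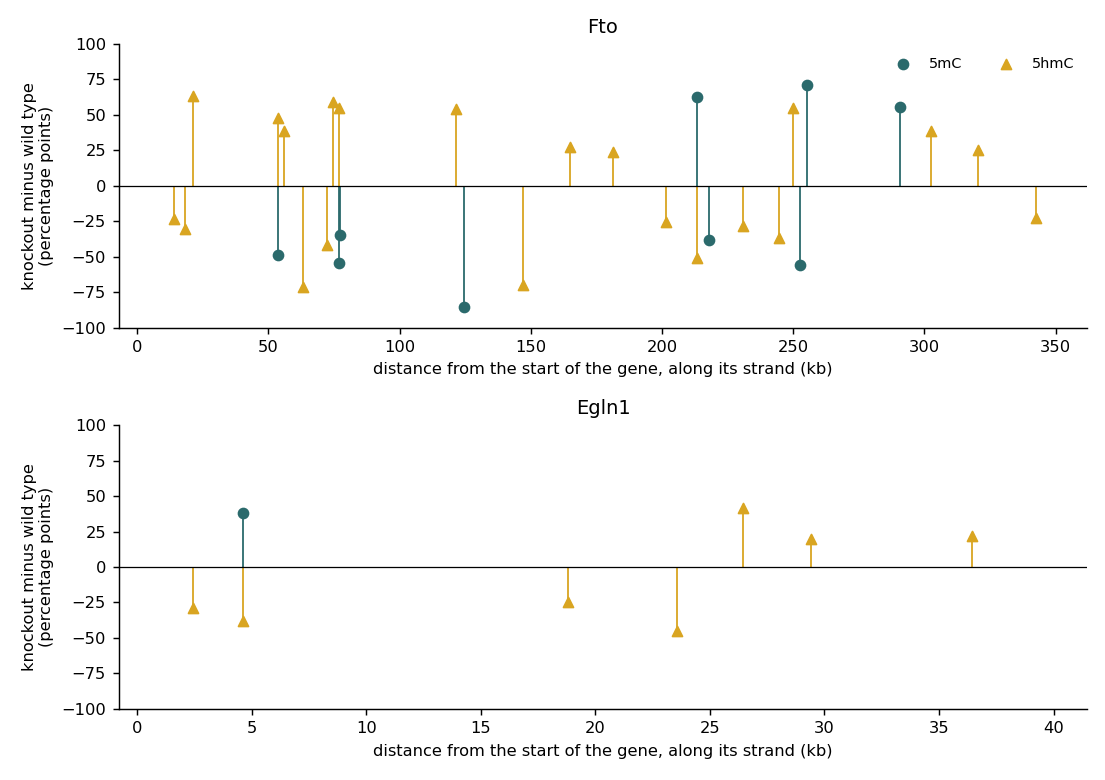
Difference in level, knockout minus wild type in percentage points, against distance in kb from the gene's start along its strand, for Fto (top) and Egln1 (bottom); circles are 5mC and triangles 5hmC. In Fto, 5hmC sites lie above and below 0 along the gene, while the first 4 5mC sites are below 0 and all 3 5mC sites above 0 lie in the distal part; in Egln1 the 4 5hmC sites nearest the start are below 0 and the 3 farthest are above.

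Of the other enzymes acting on nucleic acids, Alkbh3, a DNA and RNA alkylation repair enzyme, had 5hmC of 12.5% and 61.1% at chr2:93986308 and of 0% and 28% at chr2:93979244, past the end of the gene. Its 5mC was 97.5% and 70.6% at chr2:93981357, where the antisense gene Alkbh3os1 also lies. Alkbh8, a tRNA-modifying enzyme, had no site.

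Collagen hydroxylases held 6 5mC sites, evenly divided at 3 higher and 3 lower, and 7 5hmC sites, of which 4 were higher. Plod1, a lysyl hydroxylase that prepares collagen for cross-linking, had 3 5mC sites, all higher: 73.3% and 100% at chr4:147923123 (p = 0.00116 in the authors' deposited table), 85.1% and 98.5% at chr4:147931634, and 33.3% and 100% at chr4:147938105, upstream of the gene. Its 5hmC was 26.7% and 0% at the first of these and 12.5% and 0% at the second. A further Plod1 5hmC site beside the first, chr4:147923095, had 32.5% and 7.14%, and chr4:147912950 had 0% and 40%. The 5mC site upstream of Plod1 is also within 2 kb of or inside 2510039O18Rik.

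P4ha2, another collagen prolyl hydroxylase subunit, had 5mC of 81.8% and 42.9% and 5hmC of 2.86% and 42.9% at chr11:54113752 (5hmC p = 0.000299, q = 0.667 in the authors' deposited table). Its other 5mC site, chr11:54120021, was 17.9% and 0%. P4ha3 had 5mC of 100% and 64.7% past its end (chr7:100321089) and 5hmC of 0% and 20.8% at chr7:100310909. Plod2 and Plod3 had none. Among the small-molecule hydroxylases, Bbox1, the last enzyme of carnitine synthesis, had 1 5hmC site at 38.7% and 6.90% (chr2:110279258), and Phyh, which starts phytanic acid breakdown, had none.

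At 11 positions in 8 members, Kdm4b, Kdm6b, Phf2, Egln1, Egln3, Fto, P4ha2 and Plod1, both marks were listed, and at all 11 their differences had opposite signs. So did 99.9% of all 12608 such positions, which makes the opposite direction no property of these genes. Shared positions were 11 of 46 member 5mC sites and 11 of 75 member 5hmC sites, against 23.7% and 17.5% of the whole tables. In 6 of them 5mC was lower and 5hmC higher, and in 5 the reverse. The sum of both levels changed by under 10 points at 10 of the 11 (84.0% of all shared positions), with a median change of 1.04 points in size.

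The sum was 100% in each genotype at Egln3 chr12:54189259 and at Plod1 chr4:147923123. The exception was Fto chr8:91526699, where 5mC of 18.5% and 80.95% and 5hmC of 56% and 4.76% (5hmC q = 0.687 in the authors' deposited table) gave sums of 74.5% and 85.7%. The other Fto positions were chr8:91366875, with 95% and 46.2% 5mC and 6.25% and 53.8% 5hmC, and chr8:91390263, with 92.9% and 38.5% 5mC and 0% and 54.5% 5hmC. Plain bisulfite treatment reads both marks alike and oxWGBS reads 5mC only, so neither kind of library alone gives a 5hmC level. Opposite signs and steady sums at shared positions are therefore not read as independent results of both marks. At Plod1 chr4:147923123 both marks had the same p from the authors' comparison (p = 0.00116 in the authors' deposited table). Which libraries gave each level is not stated, and how far both tables rest on the same reads was not tested.

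**Figure D5:**
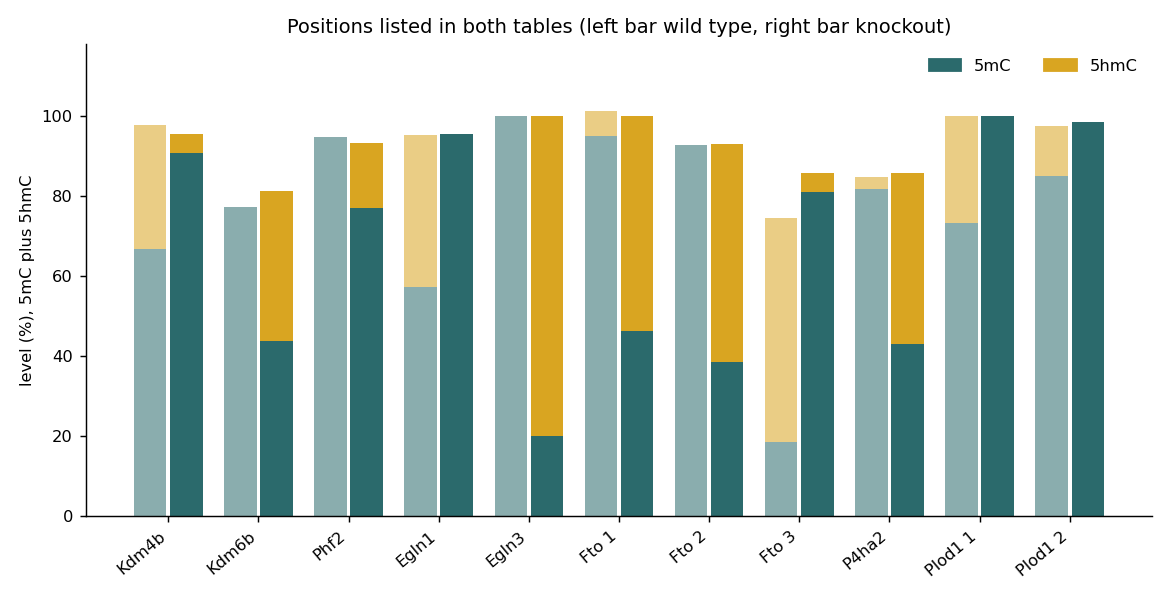
Stacked levels in percent of 5mC (dark green) and 5hmC (yellow) at the 11 member positions listed in both tables, with wild type as the left, paler bar and knockout as the right bar; genes with several positions are numbered in order of position. Total heights are alike within each pair except at the third Fto position, while the share of each colour changes.

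Related gene lists were counted in the same way. For reference, 5mC was listed in 47.1% of all protein-coding genes and 5hmC in 53.7%, and 40.3% of all 5mC sites and 64.4% of all 5hmC sites were higher. Of 24 other 2-oxoglutarate oxygenases, 14 held a 5mC and 14 a 5hmC site, with 9 of 25 5mC sites and 16 of 32 5hmC sites higher. Of 22 histone lysine methyltransferase genes and partners, 13 held a 5mC site (11 of 23 sites higher) and 12 a 5hmC site (15 of 29 higher). Of 12 HIF pathway genes, 4 held a site for each mark, with 7 of 12 5mC and 5 of 7 5hmC sites higher. Of 12 RNA methyladenosine writers and readers, 4 held a site for each mark, with 2 of 5 and 3 of 7 sites higher. The FAD-dependent lysine demethylases Kdm1a and Kdm1b held 3 5mC sites, all lower, and 1 5hmC site, which was higher. No site of these lists had a q under 0.05 in the authors' deposited table.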

How the data were processed

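Genomic DNA of LSK cells was sequenced by the submitters as 4 libraries, 1 WGBS and 1 oxWGBS library for each genotype. Per cytosine, the authors deposited a level for each genotype as a fraction between 0 and 1, printed here as percent. Both the p-values and the q-values, like the differences, were deposited and come from the authors' comparison, per the file headers. Every listed p is under 0.01. Read alignment, methylation calling, conversion, coverage and the statistical test were not given in the sources used here.

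GRCm39 is the build named in the submitters' processing notes. The positions were checked against RefSeq promoter sequences of GRCm38: all 443 5mC and all 843 5hmC positions falling in them stood at the C of a CpG, and none did after a shift of 1 bp in either direction. GRCm38 positions are therefore used. All entries are on the plus strand.

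Sites were assigned to genes with Python 3.11.15 and pandas 2.3.3, with a 2 kb margin; the assignment was tested on simulated data. Strand was taken from the promoter table, which has 32 of the 39 members. Exact binomial intervals (scipy 1.17.1) cover counting error over sites. No p-value was computed. Members, role groups, related lists and naming rule were chosen with earlier results of these data known. The naming rule gave every site of a member with up to 3 in a table, and otherwise the smallest p in each direction, q under 0.05, sites within 500 bp of an end and positions in both tables; whole runs and further sites of Jmjd1c, Egln1, Fto and Plod1 were added after their values were seen. Alternatives covered the margin, p, size of difference, neighbouring sites, overlapping genes, levels of exactly 0% or 100%, and the member with most sites.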

Additional observations from a re-analysis of the deposited data

How the results depend on the processing

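The 5hmC share of higher member sites stayed between 57.1% and 67.6% under every alternative tried, within the interval of the reported 58.7%. The 5mC share, reported at 50%, ran from 42.5% with neighbours within 200 bp counted as 1 (17 of 40) to 55.2% without levels of exactly 0% or 100%, and was 54.1% without Fto. It was 70% at an authors' p under 0.001, where 10 sites of Jarid2, Egln3 and Fto remain. Most of the 7 higher ones lie in the single Jarid2 block. With that p limit, 5mC was listed in 3 members and 5hmC in 10, in place of 20 and 22, since fewer sites qualify. Without levels of exactly 0% or 100%, 10 members held a 5hmC site. The margin of 0 or 5 kb, a difference of at least 30 points, and leaving out sites in overlapping genes kept the counts of members within 1.5 times. No paired analysis was possible because each genotype has 1 library per method and the result comes from no test. Unknown depth limits every single level.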

Other observations

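At Jarid2 chr13:44869764 a 5hmC difference of 10 points came with p = 2.35e-05 in the authors' deposited table, while at Egln3 chr12:54189259 a difference of 80 points came with p = 0.000835 there. At Fto chr8:91366875 the wild-type levels of 5mC and 5hmC add up to 101.25%, above a whole, in the authors' deposited values. Over all positions in both tables the highest such sum was 127%.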
